A study of Mus musculus with 35 samples.

Results

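The complement genes described here are C3, C4b, C1s1, C2, Cfb, C9, Hc, C8a and Masp1, followed through the open chromatin of hepatocytes in mice with cancer. Their members are the ATAC-seq regions that the authors' annotation assigned to 1 of these 9 genes by the nearest transcription start site, at a distance of at most 100000 bases. There were 161 such regions among 177904 in the deposited table, each 400 bases wide, and all 161 had enough signal to be tested. C8a had 36 of them, Hc 31, Masp1 24, C4b 18, C9 17, C2 11, C1s1 10, C3 8 and Cfb 6. Of these, 32 lay within 1000 bases of the start site, and 70 overlapped a neighbouring region, so the regions of 1 gene are not independent of each other.

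The mice were of the Hep-INTACT genotype, CAG-Sun1/sfGFP with Albumin-Cre, in which Cre made from the albumin promoter switches on a green tag on the nuclear envelope of hepatocytes so that their nuclei can be pulled down. C26 cells, a colon carcinoma line, were implanted in BALB/c mice, and livers were taken in cachexia, defined as more than 10% weight loss (n = 4), or in pre-cachexia (n = 4), with PBS injection as the control (n = 4). The 8025 tumor line gave cachexia in C57BL/6N mice (n = 4, with 3 PBS controls), while NC26 in BALB/c and MC38 in C57BL/6N gave weight-stable cancer (4 tumor and 4 PBS mice each). All livers were taken at ZT 9, and each library came from its own animal. The age of the mice is not stated in the labels.

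Complement is a cascade of plasma proteins, most of which the liver makes, that coats microbes and damaged cells and can open pores in their membranes. The classical pathway runs through C1s, C4 and C2, the lectin pathway starts with MASP proteases such as MASP1 and uses the same C4 and C2, and the alternative pathway uses factor B. All converge on C3, after which C5 (encoded by Hc in the mouse), C8 and C9 build the membrane attack complex. Several of these genes, C3 and C4 among them, belong to the acute-phase response of the liver, which inflammation and tumors can raise.

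The promoters of C3 and C8a are shown because their start-site regions moved in opposite directions in C26 cachexia. Each is the 250 bases before the RefSeq start site (GRCm38.p6, the assembly also called mm10), on the minus strand, read 5′ to 3′. The C3 stretch is chr17:57228137-57228386 and the C8a stretch is chr4:104876399-104876648. Capitals mark matches to the motifs searched.
C3: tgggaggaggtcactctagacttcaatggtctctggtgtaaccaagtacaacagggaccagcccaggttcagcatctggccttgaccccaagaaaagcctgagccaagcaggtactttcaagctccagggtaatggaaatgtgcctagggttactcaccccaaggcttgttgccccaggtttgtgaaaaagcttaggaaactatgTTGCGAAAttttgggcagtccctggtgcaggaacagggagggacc
C8a: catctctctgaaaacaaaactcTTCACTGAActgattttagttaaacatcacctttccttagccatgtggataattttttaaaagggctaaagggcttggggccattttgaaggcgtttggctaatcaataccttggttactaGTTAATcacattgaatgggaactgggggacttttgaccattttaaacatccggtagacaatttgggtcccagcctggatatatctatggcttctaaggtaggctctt

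The C3 promoter held 1 match, TTGCGAAA at bases -45 to -38, to the C/EBP letters TTGCNNAA, which 9.6% of the 32851 RefSeq promoter windows of this length hold on either strand. The C8a promoter held the STAT letters TTCNNNGAA (in 7% of windows) at -228 to -220 and the HNF1 half-site GTTAAT (in 6.4%) at -107 to -102. C/EBP and STAT factors are known to act in the acute-phase response, and HNF1 in hepatocyte identity. RefSeq windows were also found for C9, Hc and C1s1, in 6 windows over 5 genes. Among them the NF-kB letters GGGNNTTTC (in 3.7% of windows) and the AP-1 letters TGANTCA (in 6.7%) had no match, C/EBP was matched in 3, the HNF1 half-site in 2 and the TATA box letters TATAAA (in 12.4%) in 1. A match describes the letters only.

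Values are the authors' tag counts per region scaled to 10 M tags per library, called normalised tags here. Depth was 3.47 M tags in NC26 tumor replicate 1 and 11.3 to 23.8 M in the other libraries. Hepatocyte markers had a start-site region for 9 of 10 genes, at a median of 126 normalised tags. Markers of other cells had one for 4 of 10 macrophage genes, 2 of 6 neutrophil, 1 of 7 endothelial, 4 of 6 stellate, 3 of 5 cholangiocyte and 0 of 6 lymphocyte genes. Changes are log2 differences from limma over all 176957 tested regions, on log2 of the scaled value plus 1, which understates changes of weak regions. For the changes, each value was first divided by the TMM scaling factor of its library (0.80 to 1.25). Printed values, means and statements that groups overlap or do not overlap are from before this TMM scaling. Overlap among the values tested can therefore differ. A region is called higher or lower at a Benjamini-Hochberg adjusted p below 0.05.

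At the start sites, open chromatin was highest at C3, with a mean of 222 normalised tags over all 35 libraries. C4b (111) and Cfb (111) followed, then C9 (69.2), C2 (65.2), Masp1 (51.1), C8a (27.6), C1s1 (10.3) and Hc (7.94). All regions have the same length, but reads of C4b and C1s1 could be split with a close copy of each gene. Each level is also that of the 1 region nearest the start site. The Cfb region at 288 bases had a mean of 126, and the Hc region at 972 bases 37.2. Ranges over libraries overlapped between all neighbours in the start-site order. For example, C3 spanned 137 to 290 and C4b 62.8 to 185, C9 49.6 to 107 and C2 43.8 to 92.0, and C1s1 3.88 to 17.6 and Hc 2.88 to 13.7.

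In C26 cachexia against C26 PBS, 26 of the 161 complement regions rose and 7 fell, or 16.1% and 4.35%, where 7.44% and 6.81% of all tested regions rose and fell. The median log2 change was 0.14 for complement regions and 0.00 for all regions. In 8025 cachexia against 8025 PBS, 17 rose and 4 fell (10.6% and 2.48%), beside 7.25% and 5.06% of all regions, and the complement median was 0.14. The calls gathered on a few genes: C3, C4b and Masp1 gave 20 of the 26 rises in C26 cachexia, and C4b and Masp1 gave 12 of the 17 in 8025 cachexia. C1s1 and C2 had no call by limma in either. Scaling by library totals left 22 rises and 0 falls in C26 cachexia and 15 rises and 0 falls in 8025 cachexia, so no fall of a complement region held under that scaling. Without C26 cachexia replicate 4 the rises in C26 cachexia numbered 16. The falls numbered 4 without C26 PBS replicate 1 or C26 cachexia replicate 2 or 4, and 3 without C26 PBS replicate 3 or C26 cachexia replicate 3. In 8025 cachexia they numbered 2 without cachexia replicate 1, 1 without PBS replicate 1 or cachexia replicate 2 or 3, and 0 without PBS replicate 2. The groups did not overlap at 26 of the 33 regions called in C26 cachexia and at 20 of the 21 called in 8025 cachexia (78.8% and 95.2%). Over all called regions the shares were 71.7% and 89.3%, so this is near what called regions show in general.

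**Figure D1:**
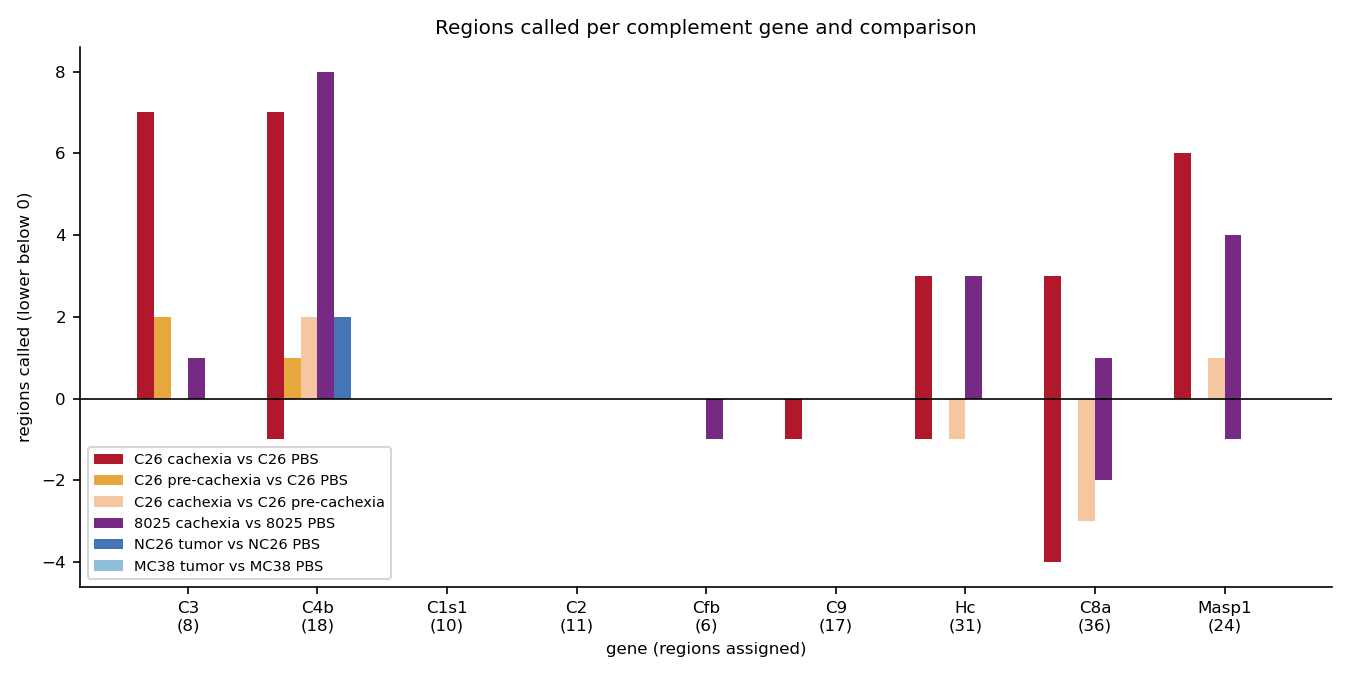
Number of regions called per gene (x axis, with the number of assigned regions in brackets) in 6 comparisons (colours), rises above 0 and falls below 0 on the y axis. In C26 cachexia C3 has 7 rises of 8 regions and C4b 7 of 18, while C1s1 and C2 have no bar in any comparison.

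C3 is the protein on which all pathways converge, and its fragments tag surfaces for uptake. All 7 called C3 regions rose in C26 cachexia, out of 8 regions from 8172 bases upstream to 456 bases downstream of the start site. The strongest distal region, 5076 bases upstream (chr17:57233012-57233412, intergenic), had 293, 277, 278 and 277 normalised tags in C26 cachexia livers, against 114, 202, 140 and 154 in C26 PBS livers. The groups did not overlap, and the cachexia values were tight (281 ± 7.74 in cachexia, 152 ± 37.1 in PBS, SD, n = 4 each). The log2 change was 0.87 (SE 0.12, adjusted p = 3.39e-06 by limma).

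The C3 start-site region (chr17:57227929-57228329, 7 bases from the start site) was the most open of the 9. It had 220, 255, 230 and 254 normalised tags in C26 cachexia livers, against 137, 207, 183 and 153 in C26 PBS livers. Every cachexia value was above every PBS value, and the log2 change was 0.47 (SE 0.10, limma adjusted p = 0.000477). The region just upstream, at -189 bases, rose by 0.38 (limma adjusted p = 0.00413, and 0.055 with scaling by library totals), and the intron region at 456 bases rose by 0.86 (limma adjusted p = 0.00232).

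Further upstream, regions at -2840, -7915 and -8172 bases rose by 0.56, 1.18 and 1.04 (limma adjusted p = 0.00108, 0.00101 and 1.66e-05). The last 2 lie in introns of Gpr108, a neighbouring gene, so their assignment to C3 rests on distance alone. The region at -8172 had 120, 100, 116 and 77.1 normalised tags in C26 cachexia livers, against 30.7, 60.9, 47.1 and 58.7 in C26 PBS livers. Here too the groups did not overlap. Across the 35 libraries the start-site and -5076 regions had a Pearson r of 0.77 on the log2 scale, a description over libraries that share tumor groups and scaling.

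In 8025 cachexia 1 of the 8 C3 regions was called. The -5076 region had 350, 238, 243 and 276 normalised tags in 8025 cachexia livers, against 267, 249 and 180 in 8025 PBS livers, and the groups overlapped (log2 change 0.22, SE 0.13, limma adjusted p = 0.319). At the start site the means were 245 ± 33.1 in 8025 cachexia (SD, n = 4) and 223 ± 21.6 in 8025 PBS (SD, n = 3), a log2 change of 0.10 (95% interval -0.12 to 0.31). Only the region at -2840 passed, with 115, 96.7, 104 and 119 in 8025 cachexia livers, against 69.8, 91.3 and 79.5 in 8025 PBS livers (log2 change 0.40, limma adjusted p = 0.0368). Its adjusted p was 0.0607 to 0.154 without PBS replicate 1, PBS replicate 4 or cachexia replicate 1, 3 or 4. The difference of the 2 cachexia effects at -5076, 8025 minus C26, was -0.65 (95% interval -1.02 to -0.29), with a limma adjusted p of 0.157 that did not pass and was 0.0101 without 8025 PBS replicate 4.

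At this region the observed means of the PBS controls were unequal, while the single values of 8025 PBS and C26 PBS overlapped. The means were 232 ± 46.2 in 8025 PBS (n = 3) and 217 ± 56.0 in MC38 PBS (n = 4), both C57BL/6N, beside 152 ± 37.1 in C26 PBS and 166 ± 14.4 in NC26 PBS (SD, n = 4 each), both BALB/c. These levels were not tested, since strain, tumor cohort and, for 8025 and C26, library series cannot be told apart. Library series means A or B, inferred here from the number in the library name.

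**Figure D2:**
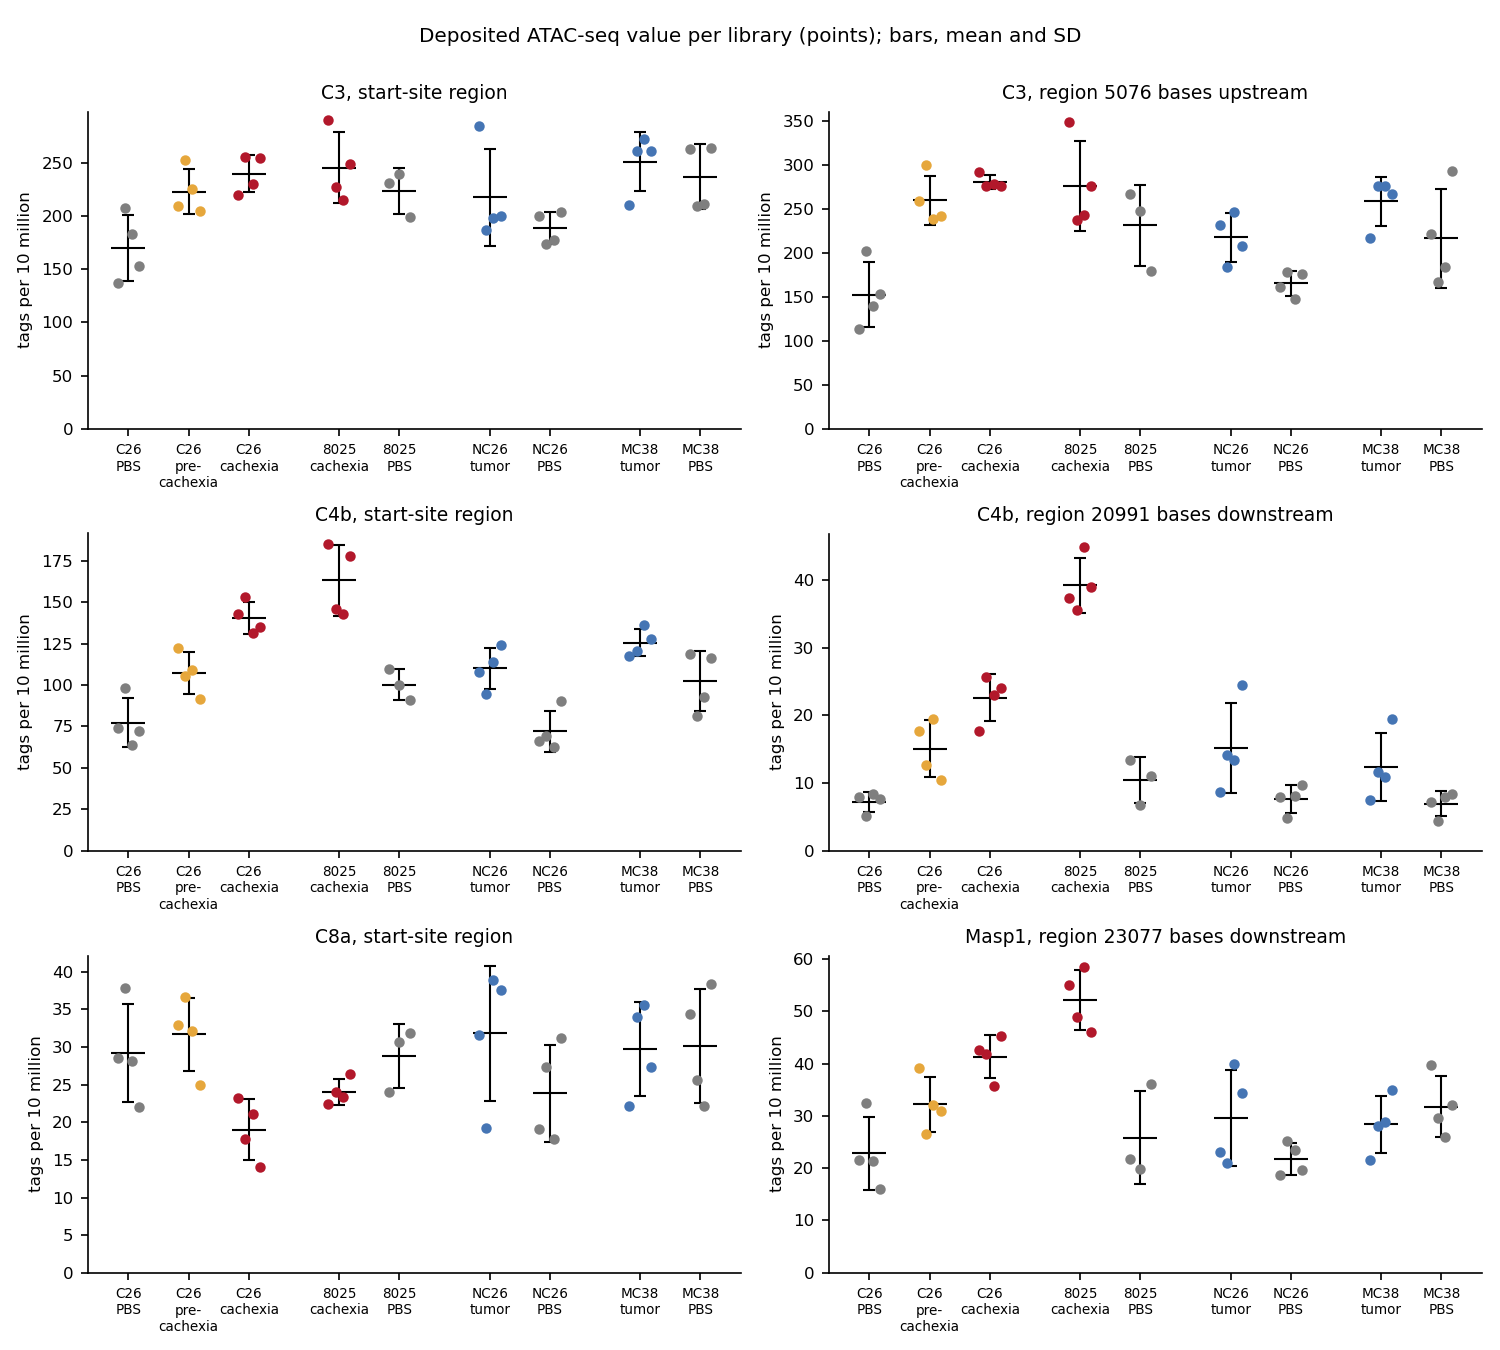
Deposited value of 6 regions in each library (y axis, tags per 10 M; points, libraries; bars, mean and SD) by group (x axis; red cachexia, orange pre-cachexia, blue weight-stable tumor, grey PBS). The C4b start-site region is above its PBS group in every C26 and 8025 cachexia library, C3 is so in C26 cachexia, and C8a falls to a mean of 19.0 in C26 cachexia, against 29.2 in C26 PBS.

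C4b encodes complement C4, whose cleaved form joins C2 to make the C3 convertase of the classical and lectin pathways. Regions at its start site and far downstream rose in both cachexia models, while 1 region at the end of the gene fell in C26 cachexia. The start-site region (chr17:34743748-34744148, 51 bases upstream) had 143, 153, 131 and 135 normalised tags in C26 cachexia livers, against 74.3, 98.5, 64.1 and 72.4 in C26 PBS livers. In the other model it had 185, 146, 143 and 178 in 8025 cachexia livers, against 110, 99.8 and 91.1 in 8025 PBS livers. Neither pair of groups overlapped. The log2 change was 0.83 in C26 cachexia (SE 0.11, limma adjusted p = 5.18e-07) and 0.66 in 8025 cachexia (SE 0.12, limma adjusted p = 0.00015).

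The C4b region with the lowest adjusted p in 8025 cachexia lay 20991 bases downstream (chr17:34722706-34723106, intergenic). It had 37.3, 35.6, 44.8 and 38.98 normalised tags in 8025 cachexia livers, against 13.4, 6.70 and 11.1 in 8025 PBS livers. In C26 cachexia livers it had 17.7, 25.7, 23.01 and 24, against 7.90, 5.10, 8.36 and 7.61 in C26 PBS livers. Both cachexia groups stood clear of their controls, with log2 changes of 1.82 (SE 0.28, limma adjusted p = 1.02e-05) in 8025 and 1.49 (SE 0.26, limma adjusted p = 5.37e-05) in C26.

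The overlapping region at 20719 bases rose by 1.96 in 8025 cachexia and 1.58 in C26 cachexia. An intron region at 11212 bases rose by 1.34 and 1.28 in the same comparisons, with limma adjusted p of 0.0078 (0.0575 without 8025 PBS replicate 4) and 0.00499. In contrast, the strongest distal C4b region, at the end of the gene 15785 bases downstream, had means of 96.9 ± 13.7 in C26 cachexia and 103 ± 24.1 in C26 PBS (SD, n = 4 each), with a log2 change of -0.10 (95% interval -0.32 to 0.11). The region at 15473 bases, which overlaps the one at 15785 bases, was called lower in C26 cachexia (log2 change -0.64, limma adjusted p = 0.0404). Its groups overlapped, and the call was lost with scaling by library totals. Another 3 C4b regions overlap transcripts of Tnxb. The mouse C4a gene is a near-identical copy of C4b, so reads could be split between them and C4b values are uncertain to that extent. The C4a start-site region, at a mean of 55.1 normalised tags, had a log2 change of 0.00 in C26 cachexia (limma adjusted p = 0.994).

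**Figure D3:**
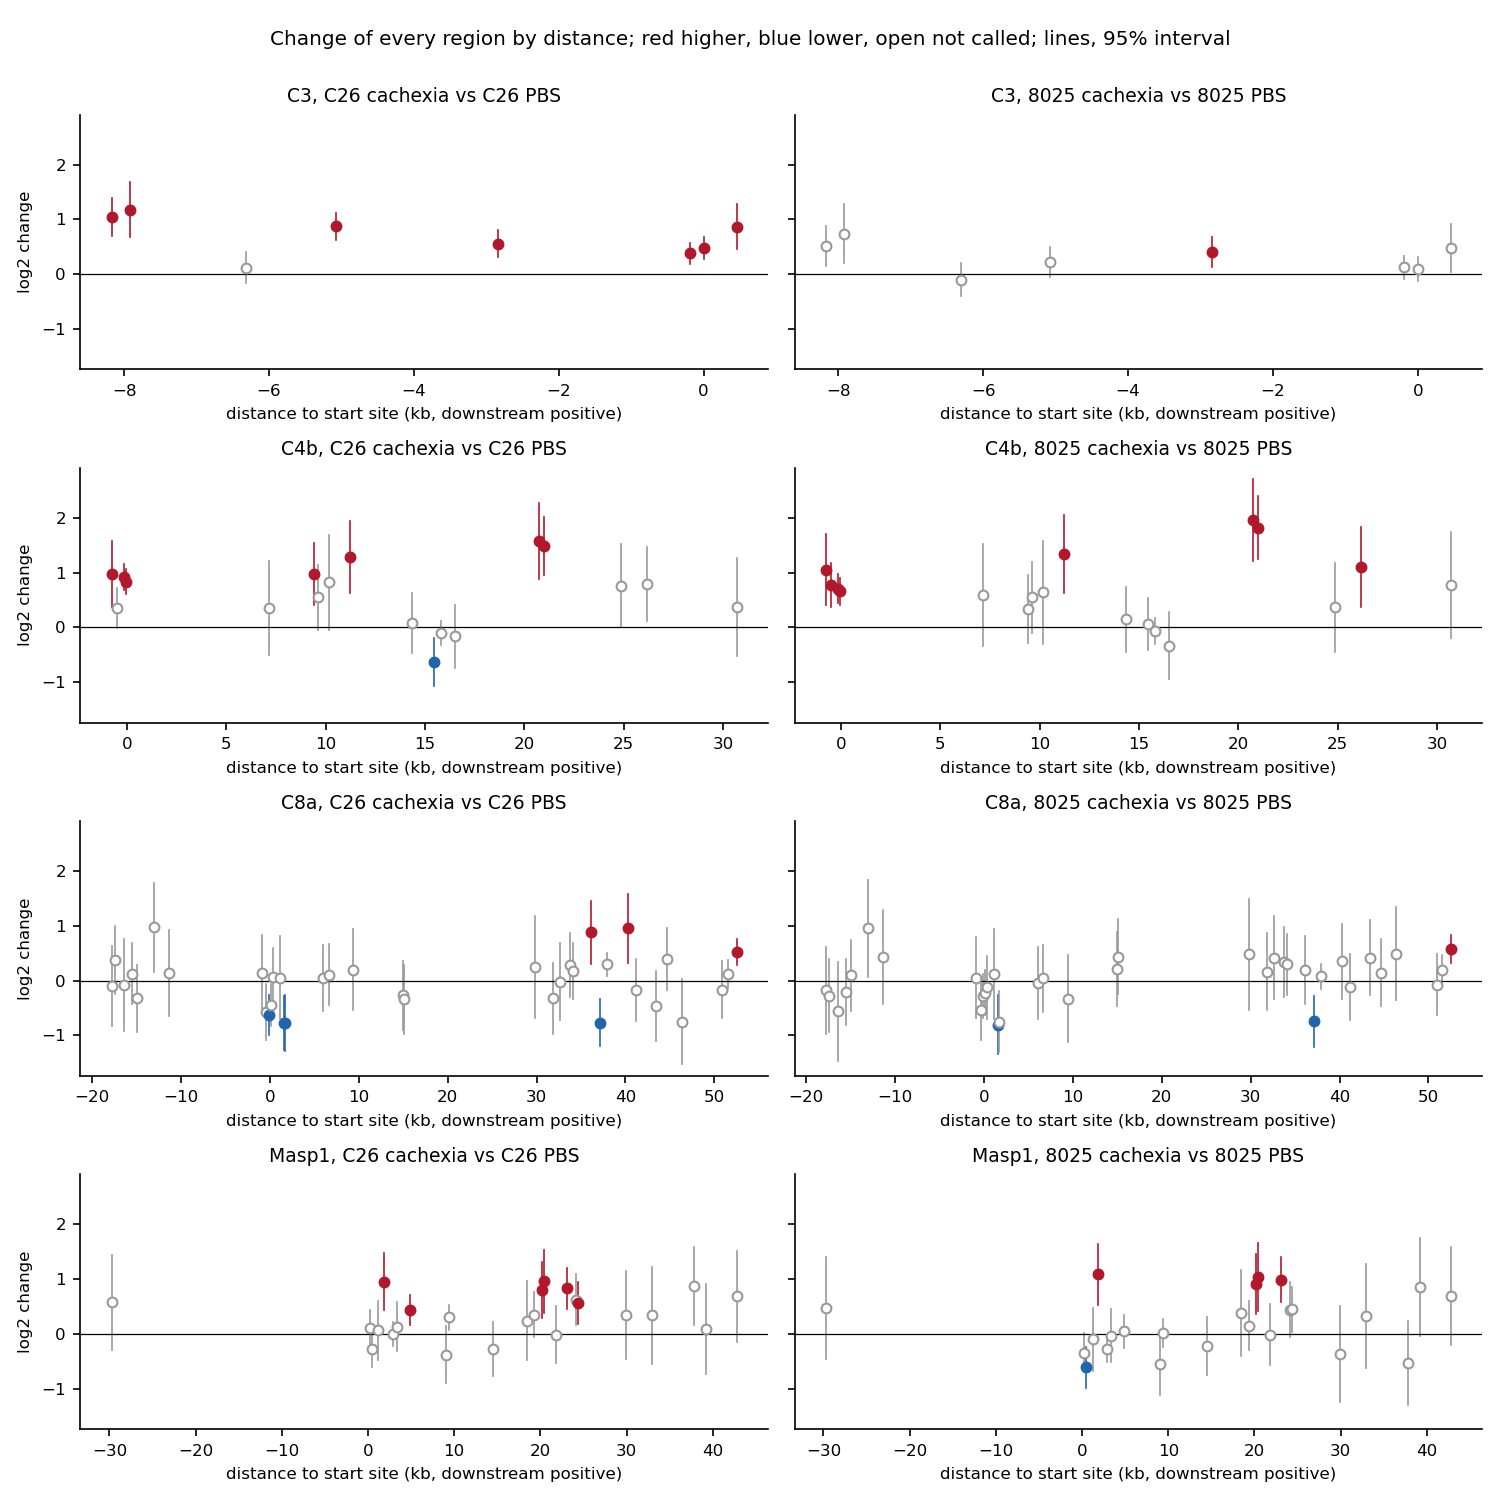
Log2 change (y axis) of every region of C3, C4b, C8a and Masp1 by its distance to the start site in kb (x axis), in C26 cachexia over C26 PBS (left) and 8025 cachexia over 8025 PBS (right). Red points were called higher, blue lower, open points were not called, and lines are 95% intervals. C4b shows rises near 0 and near 21 kb in both models, and C8a shows falls near the start site and at 37 kb beside rises elsewhere.

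Masp1 encodes a protease that starts the lectin pathway when mannose-binding lectin or ficolins bind sugars. Of its 22 intron regions 6 rose and 0 fell in C26 cachexia, and 4 rose and 1 fell in 8025 cachexia, while its start site was not called in either. The region 23077 bases downstream (chr16:23497538-23497938) had 55.01, 48.95, 58.5 and 45.96 normalised tags in 8025 cachexia livers, against 21.8, 19.7 and 36.01 in 8025 PBS livers. It had 42.5, 41.9, 35.7 and 45.3 in C26 cachexia livers, against 21.6, 32.5, 21.4 and 15.9 in C26 PBS livers. The groups did not overlap in either model, and the log2 changes were 0.99 (limma adjusted p = 0.000513) in 8025 and 0.83 (limma adjusted p = 0.00124) in C26.

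Another 3 Masp1 intron regions, at 1820, 20216 and 20403 bases, rose in both models. In 8025 cachexia their log2 changes were 1.08, 0.92 and 1.04, and in C26 cachexia 0.95, 0.80 and 0.96. The call at 1820 bases in C26 was lost without C26 PBS replicate 3 or C26 cachexia replicate 4 (limma adjusted p = 0.0515 and 0.05). The 20216 and 20403 regions, which overlap each other, lost their calls without any of 2 to 4 single libraries per comparison. At the start site (181 bases downstream, annotated as 5′ UTR) the means were 57.9 ± 7.49 in C26 cachexia and 53.97 ± 17.6 in C26 PBS (SD, n = 4 each), a log2 change of 0.11 (limma adjusted p = 0.741). In 8025 cachexia the start site changed by -0.34 (95% interval -0.70 to 0.01), and a neighbouring intron region at 494 bases fell by 0.61 (limma adjusted p = 0.0185), which became 0.0605 to 0.0883 without PBS replicate 1 or 2 or cachexia replicate 2 or 3. The strongest Masp1 distal region, at 2927 bases, had means of 97.1 ± 11.6 in C26 cachexia and 95.8 ± 18.2 in C26 PBS (SD, n = 4 each, limma adjusted p = 0.988), and its change in 8025 cachexia was -0.28 (limma adjusted p = 0.122).

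C1s1 and C2 encode the classical-pathway protease C1s and its substrate C2. Limma called 0 of 10 C1s1 regions and 0 of 11 C2 regions in C26 cachexia, with 1 region of each gene at an unadjusted p below 0.05, and edgeR and DESeq2 also called 0. In 8025 cachexia limma and edgeR called 0 of each, with 3 and 2 regions at an unadjusted p below 0.05, and DESeq2 called 1 rise of each gene. Of all tested regions, 26.1% in C26 cachexia and 24.5% in 8025 cachexia had an unadjusted p below 0.05 by limma. At the C2 start site the means were 51.3 ± 9.01 in C26 cachexia and 56.4 ± 7.04 in C26 PBS (SD, n = 4 each), a log2 change of -0.18 (95% interval -0.48 to 0.13), and in 8025 cachexia the change was -0.28 (95% interval -0.61 to 0.05). The C1s1 start site was weak, with means of 8.75 ± 2.95 in C26 cachexia and 8.65 ± 1.94 in C26 PBS (SD, n = 4 each), and its interval of -0.68 to 0.56 could hide a change of moderate size at this depth. C1s1 has a close copy, C1s2, between which reads could be split.

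Cfb encodes factor B, the protease of the alternative pathway, and lies next to C2. Its start-site region, among the most open of the 9, had means of 94.8 ± 20.7 in C26 cachexia and 98.3 ± 20.9 in C26 PBS (SD, n = 4 each), a log2 change of -0.09 (95% interval -0.34 to 0.16), and the change in 8025 cachexia was -0.14 (95% interval -0.41 to 0.13). Its intron region 1132 bases downstream had 42, 36.6, 23.2 and 36.1 normalised tags in 8025 cachexia livers, against 55.2, 48.7 and 42.96 in 8025 PBS livers. The groups did not overlap and the region was called lower (log2 change -0.55, limma adjusted p = 0.022), but not without 8025 PBS replicate 1 (0.176), 8025 PBS replicate 2 (0.0777) or 8025 cachexia replicate 3 (0.147). In C26 cachexia the same region had 40.9, 39.9, 31.8 and 34.97, against 52.1, 45.6, 47.1 and 46.7 in C26 PBS, a change of -0.41 that did not pass (limma adjusted p = 0.0727, and 0.0368 without C26 PBS replicate 2).

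Hc encodes complement C5, the first protein of the terminal pathway. Its start site was barely open, at 7.06 ± 2.83 normalised tags in C26 cachexia and 9.36 ± 2.51 in C26 PBS (SD, n = 4 each), and was not called in any comparison. Upstream of it, the region at -2415 bases (chr2:35063656-35064056) rose in both models. It had 45.2, 40.3, 42.5 and 39.8 in C26 cachexia livers, against 23.1, 26.8, 31.9 and 23.2 in C26 PBS livers, and 66.3, 52.8, 53.3 and 62.8 in 8025 cachexia livers, against 33.4, 44.1 and 34.98 in 8025 PBS livers. The cachexia values were all above the PBS values, with log2 changes of 0.63 in C26 (limma adjusted p = 0.00563) and 0.60 in 8025 (limma adjusted p = 0.0178). The 8025 call was lost without 8025 PBS replicate 1 (0.0725), 8025 PBS replicate 4 (0.104) or 8025 cachexia replicate 1 (0.0519).

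The strongest distal Hc region, 7862 bases upstream, rose in 8025 cachexia by 0.68 (limma adjusted p = 0.0223, and 0.0522 to 0.152 without PBS replicate 1 or 2 or cachexia replicate 2 or 3). In C26 cachexia it changed by 0.40 and did not pass (limma adjusted p = 0.175). An intron region at 2938 bases was called in both models with limma adjusted p of 0.0455 in C26 and 0.0425 in 8025. It is the least firm of the shared calls, since leaving out any of 7 C26 or 5 8025 libraries ended it.

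C8a encodes the alpha chain of C8, which inserts into the membrane as the attack complex forms. Its regions went both ways. The start-site region (chr4:104876275-104876675, 77 bases upstream) had 23.2, 17.8, 21.1 and 14.1 normalised tags in C26 cachexia livers, against 28.6, 37.9, 28.2 and 22.1 in C26 PBS livers. Before TMM scaling the groups overlapped at 1 pair of libraries. After it the region fell by 0.62 on the log2 scale (SE 0.18, limma adjusted p = 0.0143). The adjusted p was 0.0514 without C26 PBS replicate 2, 0.0812 without C26 cachexia replicate 4 and 0.0943 with scaling by library totals. In 8025 cachexia the means were 24.1 ± 1.71 (n = 4), against 28.9 ± 4.25 in 8025 PBS (SD, n = 3), a change of -0.28 that did not pass (limma adjusted p = 0.417).

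An intron region 37141 bases downstream (chr4:104839057-104839457) fell in both models. It had 12.1, 9.89, 9.07 and 7.54 in C26 cachexia livers, against 14.1, 25.2, 16.1 and 13.0 in C26 PBS livers, and 10.7, 10.9, 14.7 and 11.1 in 8025 cachexia livers, against 19.0, 24.7 and 16.5 in 8025 PBS livers. Neither pair overlapped. The log2 changes were -0.77 in C26 (limma adjusted p = 0.00967, and 0.0538 without C26 PBS replicate 2) and -0.74 in 8025 (0.0261, and 0.0575 to 0.193 without PBS replicate 1 or 2 or cachexia replicate 1, 2 or 4).

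Another C8a intron region, 52509 bases downstream, rose in both models. It had 140, 114, 122 and 122 in C26 cachexia livers, against 81.1, 86.7, 95.7 and 74.3 in C26 PBS livers, and 159, 149, 155 and 138 in 8025 cachexia livers, against 92.6, 93.4 and 109 in 8025 PBS livers. The groups stood apart in both, with log2 changes of 0.52 (limma adjusted p = 0.00126) and 0.57 (limma adjusted p = 0.00136). The strongest distal region of C8a, at 37871 bases, changed by 0.30 in C26 cachexia, just outside the threshold (limma adjusted p = 0.0512), and by 0.08 in 8025 cachexia.

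C9 encodes the protein that polymerises into the pore. Its start-site region had means of 61.5 ± 11.5 in C26 cachexia and 62.8 ± 10.1 in C26 PBS (SD, n = 4 each), a log2 change of -0.07 (95% interval -0.36 to 0.22), and in 8025 cachexia the change was 0.02 (95% interval -0.29 to 0.33). The strongest distal C9 region, 2871 bases upstream, changed by 0.41 and 0.35 in C26 and 8025 cachexia and did not pass (limma adjusted p = 0.26 and 0.419). An intron region at 1155 bases fell in C26 cachexia, with 12.1, 10.3, 10.7 and 14.4 normalised tags, against 18.2, 19.8, 21.1 and 18.1 in C26 PBS livers. The groups did not overlap (log2 change -0.70, limma adjusted p = 0.0137, and 0.0503 without C26 cachexia replicate 2). Among the 17 C9 regions, 4 overlap transcripts of Dab2, a neighbouring gene.

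**Figure D4:**
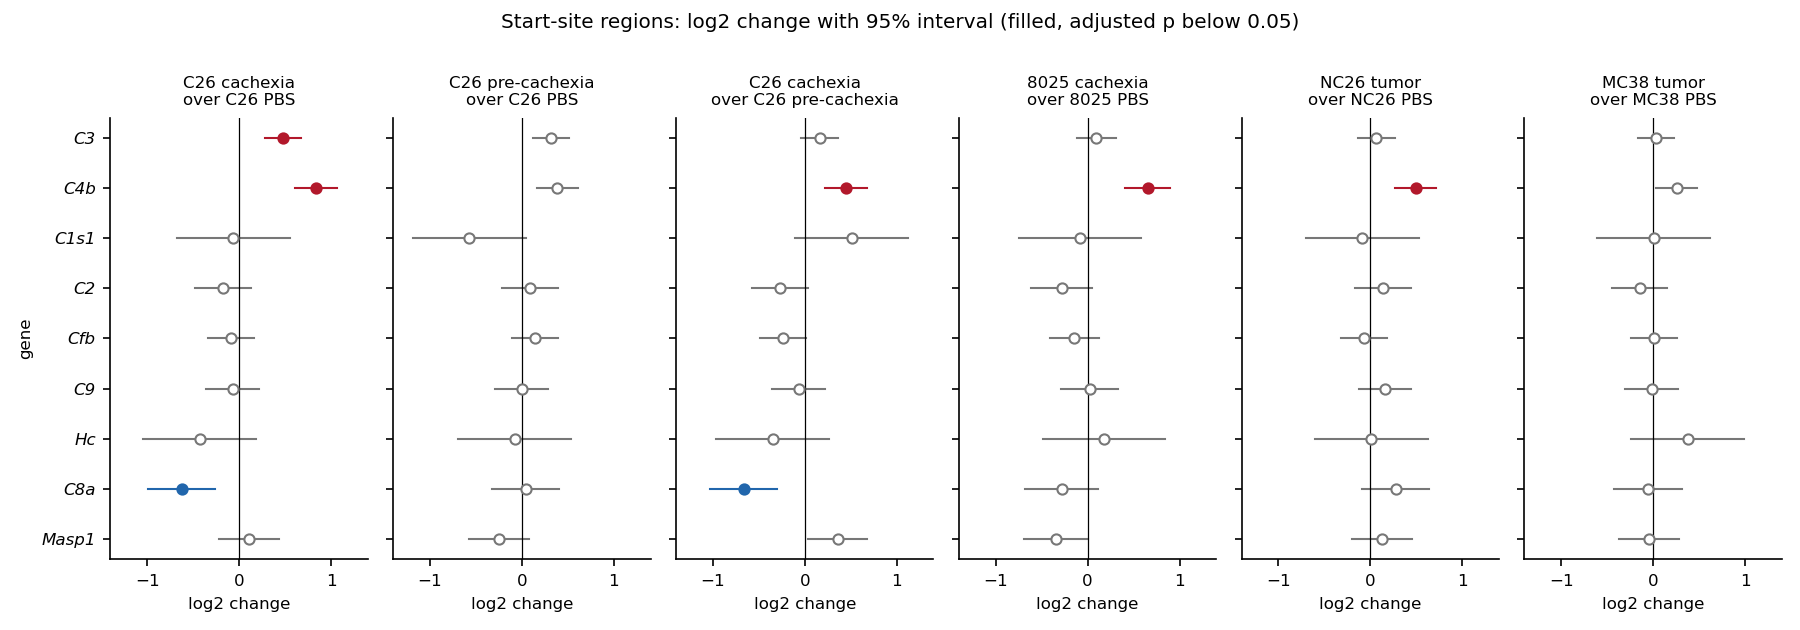
Log2 change (x axis, with 95% interval) of the start-site region of each gene (rows) in 6 comparisons (panels); filled points passed an adjusted p of 0.05, red higher and blue lower. C4b is called in C26 cachexia (over PBS and over pre-cachexia), 8025 cachexia and NC26 tumor livers, C3 in C26 cachexia over PBS at 0.47, and C8a falls in C26 cachexia over PBS and over pre-cachexia.

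The 2 cachexia models share no libraries, and 14 regions rose in both. They were 53.8% of the 26 rises in C26 and 82.4% of the 17 rises in 8025. Over all regions 45.1% of the C26 rises and 46.2% of the 8025 rises were shared. Of the 14, 6 belong to C4b, 4 to Masp1, 2 to Hc, 1 to C8a and 1 to C3. The C8a regions at 1571 and 37141 bases fell in both, or 28.6% of the C26 falls and 50% of the 8025 falls, beside 36.6% and 49.2% over all regions. No region was called in opposite directions. The test of the difference itself, 8025 minus C26 effect, called 0 complement regions in either direction, where 0.074% of all regions were higher and 0.0266% lower. In it 6 complement regions (3.73%) had an unadjusted p below 0.05, as did 9.08% of all regions, and edgeR and DESeq2 also called 0. A count of 0 does not show that the models act alike. At the C3 start site the difference was -0.38 (95% interval -0.67 to -0.09, limma adjusted p = 0.366). The other 7 C3 regions had negative differences as well, down to -0.65. All 8 were measured in the same libraries and 4 of them overlap a neighbour, so the shared sign is a description and not separate support.

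**Figure D5:**
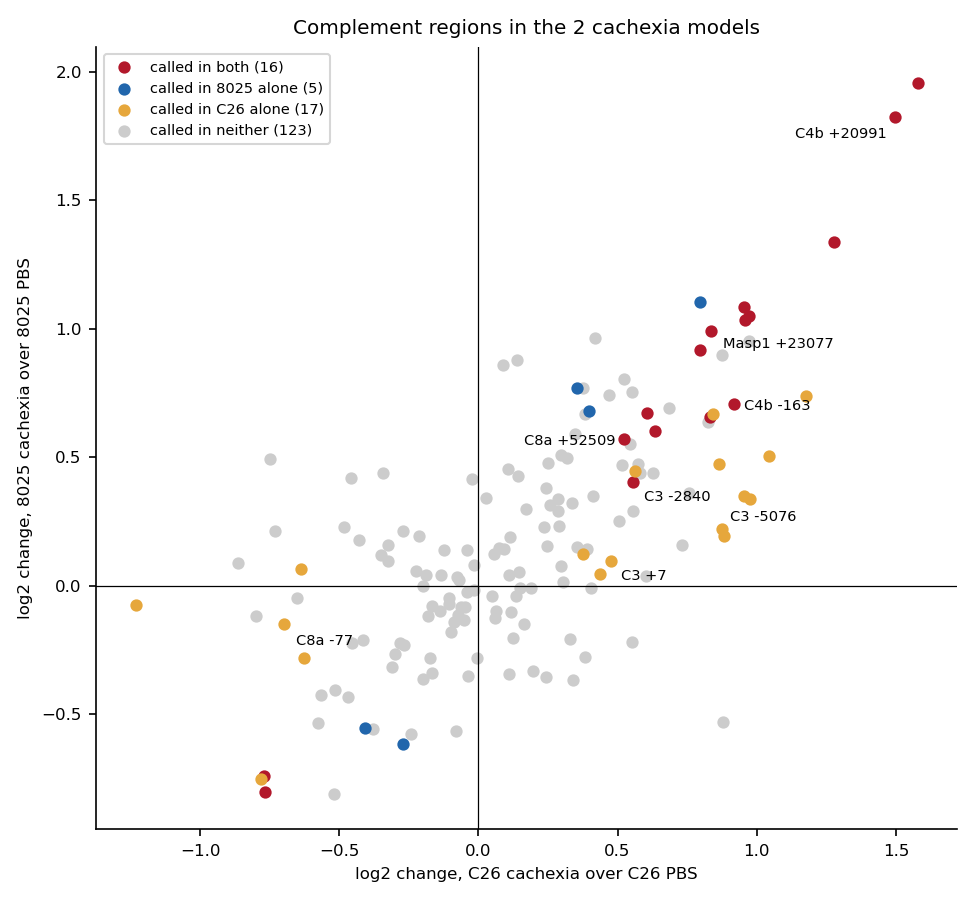
Log2 change of each of the 161 regions in C26 cachexia over C26 PBS (x axis) and 8025 cachexia over 8025 PBS (y axis), coloured by where it was called, with 8 regions named by gene and distance to the start site in bases. The regions called in both models number 16, and the C3 start-site and -5076 regions are called in C26 cachexia and not in 8025 cachexia.

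Some markers of other cell types were called in the cachexia comparisons, where 9.92% of all start-site regions rose and 2.02% fell in C26 and 3.4% rose and 3.13% fell in 8025. The summed start-site signal of 4 macrophage marker genes was 33.7 to 39.6 normalised tags in 8025 cachexia, against 14.5 to 18.8 in 8025 PBS, and 15.9 to 26.3 in C26 cachexia, against 12.4 to 19.9 in C26 PBS. None of the 4 was called, but 3 had an unadjusted limma p below 0.05 in 8025 cachexia and 0 in C26 cachexia. Of all tested regions, 24.5% and 26.1% did so in 8025 and C26 cachexia. The median log2 change of the 4 macrophage genes was 1.07 in 8025 cachexia and 0.31 in C26 cachexia. The other 6, Csf1r, Cd68 and Clec4f among them, had no start-site region. The sum of 2 neutrophil genes was 46.7 to 73.6 in 8025 cachexia, against 38.3 to 42.4 in 8025 PBS, and 52.8 to 57.7 in C26 cachexia, against 28.3 to 48.1 in C26 PBS, and 1 of the 2 rose in each model. Over 4 stellate cell genes the sum was 53.7 to 71.3 in 8025 cachexia, against 73.6 to 91.1 in 8025 PBS, where 1 rose and 1 fell, and 54.2 to 67.9 in C26 cachexia, against 49.5 to 80.3 in C26 PBS, where 0 were called. The 1 endothelial gene with a start-site region had 7.37 to 11.2 in 8025 cachexia, against 4.99 to 9.26 in 8025 PBS, and 10.28 to 14.8 in C26 cachexia, against 7.97 to 10.25 in C26 PBS, and was not called. Of 3 cholangiocyte genes, summing to 94.5 to 126 in 8025 cachexia, against 61.0 to 90.3 in 8025 PBS, and to 68.9 to 80.3 in C26 cachexia, against 33.3 to 64.1 in C26 PBS, 2 rose in 8025 and 1 in C26. Of the 9 hepatocyte markers, 4 rose in C26 cachexia and 0 in 8025 cachexia. The part of any of these in the complement results was not tested, and open chromatin in fewer or more nuclei of a type cannot be told apart from a change per nucleus.

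In pre-cachexia livers, the changes that passed were at C3 and C4b. Against C26 PBS, 3 complement regions rose and 0 fell (1.86% and 0%), where 1.05% of all regions rose and 0.264% fell. They share their PBS controls with the cachexia comparison. Limma found 27 complement regions (16.8%) at an unadjusted p below 0.05, beside 11.9% of all regions, edgeR called 4 rises and DESeq2 8, and neither called a fall. In pre-cachexia livers the C3 region at -5076 had 260, 300, 239 and 242 normalised tags, against the PBS values of 114 to 202 given above (log2 change 0.70, SE 0.12, limma adjusted p = 0.00115). At -8172 bases the pre-cachexia values were 108, 83.2, 98.4 and 90.0, against PBS values of 30.7 to 60.9 (log2 change 0.88, limma adjusted p = 0.00225). In both, every pre-cachexia value exceeded every PBS value.

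The third rise was the C4b region at -163 bases, with means of 66.5 ± 14.4 in PBS, 96.9 ± 9.40 in pre-cachexia and 128 ± 6.87 in cachexia (SD, n = 4 each). Its pre-cachexia log2 change was 0.47 (limma adjusted p = 0.0302), and the adjusted p was 0.0508 to 0.203 without PBS replicate 1 or 3 or pre-cachexia replicate 1 or 3. The start sites did not pass in pre-cachexia, with changes of 0.31 at C3 (limma adjusted p = 0.103) and 0.39 at C4b (limma adjusted p = 0.0732). C8a at its start site changed by 0.04 (95% interval -0.33 to 0.41).

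In cachexia against pre-cachexia, 3 complement regions rose and 4 fell (1.86% and 2.48%), beside 2.23% and 3.21% of all regions. The complement shares were thus not above those of all regions. C4b rose further at its start site, with 143, 153, 131 and 135 normalised tags in cachexia livers, against 122, 105, 109 and 91.4 in pre-cachexia livers, which did not overlap (log2 change 0.45, limma adjusted p = 0.0106). That call was lost without pre-cachexia replicate 2 or 4 (0.0744 and 0.0673) and with scaling by library totals (0.156). A Masp1 intron region at 19313 bases, named here after its value was seen, also rose (0.82, limma adjusted p = 0.0101). Its call was lost without pre-cachexia replicate 2 or 4 (0.0743 and 0.0646) and with scaling by library totals (0.0523), under which 0 of the 3 rises held. The C3 start-site and -5076 regions changed by 0.16 and 0.17 and did not pass.

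The C8a start site and its 37141 region fell between the stages, by 0.66 (limma adjusted p = 0.0205) and 1.08 (limma adjusted p = 0.000985) on the log2 scale. At 37141 bases the values were 12.1, 9.89, 9.07 and 7.54 in cachexia livers, against 17.7, 32.8, 21.6 and 18.7 in pre-cachexia livers, and the call held without any single library. The start-site call did not hold without cachexia replicate 2 or 4 or pre-cachexia replicate 1, 2 or 3 (0.0522 to 0.119). The number of rises ranged from 1 (without pre-cachexia replicate 2 or 4) to 6 (without pre-cachexia replicate 3), and was 5 without pre-cachexia replicate 1. The number of falls was 1 without cachexia replicate 2 or pre-cachexia replicate 1, 2 or 3, and 2 without cachexia replicate 4.

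In weight-stable cancer few complement regions were called. In NC26 tumor against NC26 PBS livers 2 rose and 0 fell (1.24% and 0%), where 0.136% of all regions rose and 0.0401% fell. Limma found 27 complement regions (16.8%) at an unadjusted p below 0.05, beside 10.5% of all regions. Both rises are the overlapping C4b regions at the start site. The start-site region had 108, 94.6, 114 and 124 normalised tags in NC26 tumor livers, against 66.4, 68.9, 62.8 and 90.4 in NC26 PBS livers. The groups did not overlap (log2 change 0.49, SE 0.11, limma adjusted p = 0.0448). Each call was lost without NC26 PBS replicate 1, 2 or 3 or NC26 tumor replicate 1, 2 or 4, where the count became 0, and edgeR called 0 and DESeq2 3 rises. At C3 the start site changed by 0.07 and the -5076 region by 0.27 (limma adjusted p = 0.864 and 0.435). Distal regions that rose in both cachexia models were not called here, but some had positive changes. The C4b region at 20991 bases changed by 0.74 (95% interval 0.21 to 1.27, limma adjusted p = 0.274). Hc at -2415 changed by 0.47 (0.14 to 0.81), C8a at 52509 by 0.32 (0.09 to 0.56) and Masp1 at 23077 by 0.27 (-0.11 to 0.65).

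In MC38 tumor against MC38 PBS livers limma, edgeR and DESeq2 all called 0 complement regions, with 16 (9.94%) at an unadjusted p below 0.05, beside 6.32% of all regions. Of all regions 0.0181% rose and 0.000565% fell. The C4b start-site region had 118, 121, 136 and 127 in MC38 tumor livers, against 119, 81.5, 92.9 and 116 in MC38 PBS livers. These values, from before TMM scaling, overlapped by 1 pair. The log2 change, after TMM scaling, was 0.25 (95% interval 0.03 to 0.48, limma adjusted p = 0.732). The C3 and C8a start sites changed by 0.03 and -0.06. The C4b region at 20991 bases changed by 0.65 (95% interval 0.12 to 1.18, limma adjusted p = 0.673). Hc at -2415 changed by 0.19 (-0.15 to 0.52), C8a at 52509 by 0.14 (-0.09 to 0.38) and Masp1 at 23077 by -0.21 (-0.59 to 0.16).

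The difference between the cachexia effect and the effect of a weight-stable tumor in the same strain was tested directly. For C26 minus NC26, 0 complement regions were higher and 2 lower (0% and 1.24%), where 1.2% of all regions were higher and 1.02% lower. An unadjusted p below 0.05 was reached by 30 complement regions (18.6%) and by 15.5% of all regions, and edgeR called 0 and DESeq2 3, all lower. No C3 or C4b difference passed. It was 0.61 at the C3 -5076 region (95% interval 0.25 to 0.96, limma adjusted p = 0.0544), 0.41 at the C3 start site (95% interval 0.13 to 0.69, limma adjusted p = 0.109) and 0.34 at the C4b start site (95% interval 0.02 to 0.66, limma adjusted p = 0.283). The C3 -5076 difference passed without C26 PBS replicate 2 or 4 or NC26 tumor replicate 2 (limma adjusted p = 0.0411 to 0.0476), and that at the C3 start site passed without NC26 tumor replicate 1, the library of lowest depth (0.0321). The 2 lower regions are both at C8a, the start site (-0.90, SE 0.26, limma adjusted p = 0.0492) and the 37141 region (-1.05, limma adjusted p = 0.0493). The start-site call was lost without any of 12 single libraries (limma adjusted p up to 0.131) and the 37141 call without any of 14. Both were also lost with scaling by library totals (0.138 and 0.11), with only the cohorts compared and by edgeR (0.0747 and 0.0623). Part of each difference lies in NC26 tumor livers, where these C8a regions changed by 0.27 and 0.28 against NC26 PBS and were not called.

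For 8025 minus MC38, 1 complement region was higher and 1 lower (0.621% each), where 0.962% of all regions were higher and 0.747% lower. An unadjusted p below 0.05 was reached by 19 complement regions (11.8%), beside 13.5% of all regions. The higher one is Masp1 at 23077 bases, where the effect was 1.20 larger in 8025 (95% interval 0.65 to 1.76, limma adjusted p = 0.0122, 0.0741 without 8025 PBS replicate 2 and 0.0523 with scaling by library totals). In MC38 tumor livers this region had 21.5, 28.1, 28.9 and 34.9, against 39.7, 29.5, 25.9 and 31.99 in MC38 PBS livers. The lower one is C8a at 37141 bases (-1.16, limma adjusted p = 0.0418). That call was lost without any of 11 single libraries (limma adjusted p = 0.0538 to 0.179), with scaling by library totals (0.115), without the library series (0.0575) and with only the cohorts compared (0.0552). In MC38 tumor livers the C8a region at 37141 bases changed by 0.42 against MC38 PBS and was not called (limma adjusted p = 0.804). At the C4b start site the difference was 0.40 (95% interval 0.07 to 0.74, limma adjusted p = 0.24). The 2 regions at 37141 and 23077 bases lie outside the rule for named regions in these differences and were named after their values were seen.

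Other genes of the complement pathway gave few calls at their start sites. Of 42 listed genes, 31 had such a region. In C26 cachexia 0 rose and 1 fell, where 9.92% and 2.02% of the start-site regions of all genes rose and fell, with 6 of the 31 at an unadjusted p below 0.05 and no rise by edgeR or DESeq2. The 3 with the lowest adjusted p were Cd59b, which protects cells from the attack complex and fell by 0.72 (limma adjusted p = 0.00298), Cd46, another membrane regulator (-0.32, limma adjusted p = 0.0713), and Cfhr2, a relative of factor H (0.42, limma adjusted p = 0.0806). In 8025 cachexia 0 rose and 1 fell, beside 3.4% and 3.13% of all genes, with 9 at an unadjusted p below 0.05 and 1 rise by each of edgeR and DESeq2. The fall was C8g, the gamma chain that joins C8a in C8 (-0.66, SE 0.14, limma adjusted p = 0.00107), chosen here after its value was seen. In the other comparisons the count was 0 by limma and edgeR, and DESeq2 called 1 fall in pre-cachexia. In these, 5 genes in pre-cachexia, 5 in cachexia against pre-cachexia, 4 in NC26 and 1 in MC38 were at an unadjusted p below 0.05. Over all tested regions, not start sites alone, the shares in these were 11.9%, 18.1%, 10.5% and 6.32%. In C26 and 8025 cachexia they were 26.1% and 24.5%.

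The start-site regions whose 9 group means were most like those of the C3 start site, among 10904 candidates, were Haus5 (Pearson r = 0.98), Fetub (0.97), Rab17 (0.97), Safb2 (0.97) and Wdr45b (0.97). Fetub encodes fetuin-B, a plasma protein made by the liver. The groups share controls and strains, and the highest of many correlations over 9 points is a description only. Within single genes, the start-site and strongest distal regions had a Pearson r over the 35 libraries from -0.16 at C8a to 0.35 at C9, apart from the 0.77 at C3.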

How the data were processed

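ATAC-seq of hepatocyte nuclei was deposited for 35 libraries in 9 groups, as 1 table of 177904 regions of 400 bases on mm10. Reads were paired-end, per the labels' protocols, and the submitters' processing notes name BWA 0.7.5a-r405, SAMtools and HOMER. How duplicates were handled and which peak settings were used is not given there. The deposited signal is the authors' tag coverage per region, scaled to 10 M tags per library. Every value (100%) was a whole number of read ends within 0.05 tag, so those read ends were recovered for the count tests. About 25000 nuclei and 12 PCR cycles went into each library, and read ends are not independent molecules.

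The main test was limma 3.58.1 (R 4.3.3) with trend and robust moderation on log2(value divided by TMM factor, plus a pseudocount of 1), since the values are normalised, in 1 model of 9 groups with the library series as covariate. The library series, A or B, was inferred from the number in each library's name. Regions were kept by edgeR's filter (minimum count 10, minimum total 15), which removed 947, and p-values were Benjamini-Hochberg adjusted over all 176957 left. edgeR 4.0.16 and DESeq2 1.42.0 on read ends, other scalings, models and pseudocounts, and leaving out each library were alternatives. The script was tested on simulated data.

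The regions described by rule were each gene's start-site region, its strongest distal region and, in both cachexia comparisons against PBS, the called region with the lowest adjusted p; others were named after their values were seen. The members and lists were chosen with earlier results of these data known. Each library carries its own animal ID in the labels.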

Additional observations from a re-analysis of the deposited data

Results flagged for a closer look

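Among 200 groups of 4 libraries over 25 named regions, 13 held a library whose gap to its neighbour exceeded the 95% critical value of Dixon's ratio. Chance gives about 5% of groups.

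At C3, the -5076 region had 293 normalised tags in C26 cachexia replicate 1, against 277 to 278 in the other 3, and 217 in MC38 tumor replicate 1, against 267 to 276. The C3 start site had 285 in NC26 tumor replicate 1, the library of lowest depth, against 187 to 200. The C4b region at -163 had 81.6 in NC26 PBS replicate 4, against 57.6 to 61.4. The C2 start site had 46.8 in 8025 cachexia replicate 2, against 68.6 to 71.3. The C9 region at 1155 had 15.8 in NC26 tumor replicate 3, against 20.1 to 21.

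At Hc, the -7862 region had 26.96 in C26 pre-cachexia replicate 4, against 49.3 to 52.96, and 35.1 in MC38 tumor replicate 1, against 58.7 to 63.3, and the start site had 4.2 in NC26 PBS replicate 2, against 6.89 to 7.28. The C8a region at 52509 had 91.6 in NC26 tumor replicate 2, against 124 to 129. The Masp1 start site had 53.3 in C26 pre-cachexia replicate 2, against 43.95 to 44.9, 53.4 in NC26 PBS replicate 4, against 37.3 to 39.8, and 37.7 in MC38 tumor replicate 1, against 56.99 to 57.97. MC38 tumor replicate 1 was low in 3 of these regions.

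In 4 cases the effect of a cachexia model differed from that of a weight-stable tumor by limma's test of the difference. The C26 minus NC26 difference was -0.90 at the C8a start site and -1.05 at its 37141 region. The 8025 minus MC38 difference was -1.16 at C8a 37141 and 1.20 at Masp1 23077. None of the 4 calls held in every alternative, and all 4 were lost with scaling by library totals (limma adjusted p = 0.0523 to 0.138). In each pair the cachexia model and the weight-stable tumor also differ in cohort, and the library series of the cohorts differ, which cannot be told apart from the tumor.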

How the results depend on the processing

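No complement region reversed a call under any alternative run. Of the C26 cachexia rises 14 of 26 held in every alternative, of the 8025 rises 8 of 17, of the pre-cachexia rises 2 of 3 and of the stage falls 1 of 4, but 0 of the 7 C26 and 0 of the 4 8025 falls. Scaling by library totals left 0 falls in C26 cachexia, 0 in 8025 cachexia, 0 stage rises, 0 NC26 rises, 0 lower C26 minus NC26 differences and 0 of either sign for 8025 minus MC38. Using only the cohorts compared gave 7 pre-cachexia rises, 0 NC26 rises, 1 higher and 0 lower C26 minus NC26 difference and 0 lower for 8025 minus MC38. DESeq2 gave 8 pre-cachexia rises, DESeq2 and a pseudocount of 5 each gave 2 higher 8025 minus MC38 differences, and edgeR gave 0 NC26 rises and 0 lower C26 minus NC26 differences. Dropping the library series gave 1 higher and 1 lower for C26 minus NC26 and 0 lower for 8025 minus MC38. Without the library of lowest depth there were 5 stage rises, 0 NC26 rises, and 1 higher and 0 lower for C26 minus NC26. With series A libraries alone, an alternative chosen after seeing the data, there were 2 stage falls, 0 NC26 rises and 0 lower for C26 minus NC26. The cause of these moves was not tested.

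Leaving out single libraries gave 16 to 25 rises and 3 to 5 falls in C26 cachexia, 2 to 4 and 0 in pre-cachexia, 1 to 6 and 1 to 5 between the stages, 12 to 14 and 0 to 4 in 8025, 0 to 2 and 0 in NC26, and 0 and 0 in MC38. For the differences it gave 0 to 2 higher and 0 to 2 lower (C26 minus NC26), 0 to 2 and 0 to 1 (8025 minus MC38) and 0 and 0 to 1 (8025 minus C26). Same-numbered libraries did not deviate together (correlations of -0.156 to 0.077), so the numbers are not taken as pairs. A replicate block gave 1 fall in 8025 cachexia, 0 NC26 rises and 1 higher and 0 lower for C26 minus NC26. Depth limits weak regions such as the C1s1 and Hc start sites.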
